A study of Danio rerio with 20 samples.

Results

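DMSO at 0.1 ml/L was compared with unexposed control, in zebrafish embryos taken whole at 48 h after fertilisation. Dimethyl sulfoxide (DMSO) is an organic solvent used to carry poorly soluble chemicals into test water, and the comparison asked which transcripts it changes by itself. The members were the pools labelled as DMSO 0.1 ml/L, replicates 2 to 4, and as control, replicates 1 to 4. These pools lay on 12 of the 20 arrays of the series, as 3 DMSO and 4 control pools.

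The series also holds pools given DMSO at 0.025 ml/L, or dimethylformamide (DMF, another solvent) at 0.025 or 0.1 ml/L. A pool was the surviving embryos of 1 plate that had held 20 exposed embryos at 26 °C, so animals within a pool are not replicates. RNA was amplified, labelled with Cy3 or Cy5, and each pair of pools was hybridised to 2 arrays with the dyes exchanged. The strain is not given in the sources used here. Values are from whole embryos, so fewer cells of a type and less RNA per cell cannot be told apart.

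The file of array 1 names the scan of array 17. Before normalization the log ratios of arrays 1 and 17 had a correlation of 0.881, and the highest among the remaining 189 combinations was 0.605. The pair on arrays 1 and 2, which joined replicate 1 of DMSO 0.1 ml/L to replicate 2 of DMF 0.025 ml/L, was therefore outside the fit, which held 18 arrays in 9 pairs. Fitted with all 10 pairs as deposited, 2 probes passed in place of 10. A ratio in at least 9 pairs was required there, so 3231 probes were tested, against 3652 in the main fit. The part of this filter in the lower count was not tested.

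At this stage a zebrafish embryo has a beating heart, a segmented trunk and a regionalised brain. Its body plan is set by homeobox transcription factors: hox genes give position along the hindbrain and trunk, and dlx genes pattern the forebrain and the cartilage of jaw and gills. Embryos exposed to a chemical may also induce detoxifying enzymes and heat shock proteins. The genes listed here for xenobiotic and oxidative stress and for heat shock had no probe with a symbol; cyp2ad2, a cytochrome P450 outside that list, had a ratio in 3 pairs and was not tested.

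Replicates at 0.1 ml/L DMSO are called DMSO pools from here on, replicates of the lower DMSO concentration DMSO-low pools, and those of DMF at 0.1 and 0.025 ml/L DMF-high and DMF-low pools, each with its label's replicate number. Both conditions met on only 1 pair, DMSO pool 3 with control pool 4, called the direct pair. In the least squares estimate of DMSO 0.1 ml/L minus control, the direct pair had a weight of 0.467. DMSO pool 2 over DMSO-low pool 2, and DMSO pool 4 over DMF-high pool 3, had 0.267 each. The other 3 control pools entered through DMSO-low pool 1 (0.200), DMF-high pool 1 (0.200) and DMF-low pool 1 (0.133). A value for this comparison is therefore in large part a sum of steps through other conditions.

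**Figure D1:**
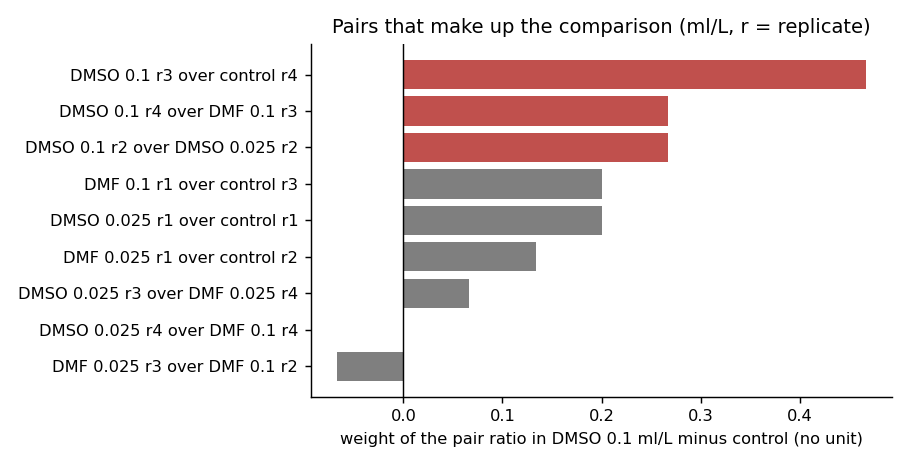
Weight of each of the 9 pair ratios in the estimate of DMSO 0.1 ml/L minus control for a probe measured in all pairs; red bars hold a DMSO 0.1 ml/L pool. The direct pair has the longest bar at 0.467, and DMSO-low pool 4 over DMF-high pool 4 has a weight of 0.

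On the arrays of the fit, 35.5% to 67.4% of probe spots had a confidence grade above the lowest, and the number of arrays limits the precision. DMSO pool 3 was dim on both arrays: its median amplitude was 1.40 times that of empty spots in Cy3 and 1.21 times in Cy5. Control pool 1 was similar, at 1.57 and 1.24 times, and the other DMSO and control pools ranged from 2.66 to 12.1 times. Dimness was not confined to these: DMSO-low pool 2, the partner of DMSO pool 2, had 1.53 times in Cy3 and 1.12 times in Cy5. The part of this dimness in the results was not tested. After the dyes were exchanged, the ratios of the 2 arrays of the direct pair correlated at 0.0981 across probes. The highest correlation was 0.513, for DMSO pool 4 with DMF-high pool 3, and DMSO pool 2 with DMSO-low pool 2 had 0.132. All remaining pairs were below the direct pair, at -0.322 to 0.0883.

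Among 3652 probes with a ratio in at least 8 pairs, 10 were higher with DMSO 0.1 ml/L and 0 were lower (limma, adjusted p under 0.05), which is 0.274% and 0% of those tested. The 10 probes carry sequence record numbers that no table used here pairs with a gene, so their functions are not described. At an unadjusted p under 0.05, 5.39% were higher and 6.98% lower. The median log2 change of all tested probes was -0.06, and the middle 95% of probes lay between -0.67 and 0.73. A log2 change above 1 was found for 46 probes and below -1 for 15. The half-width of a probe's 95% confidence interval was 0.490 at the median.

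**Figure D2:**
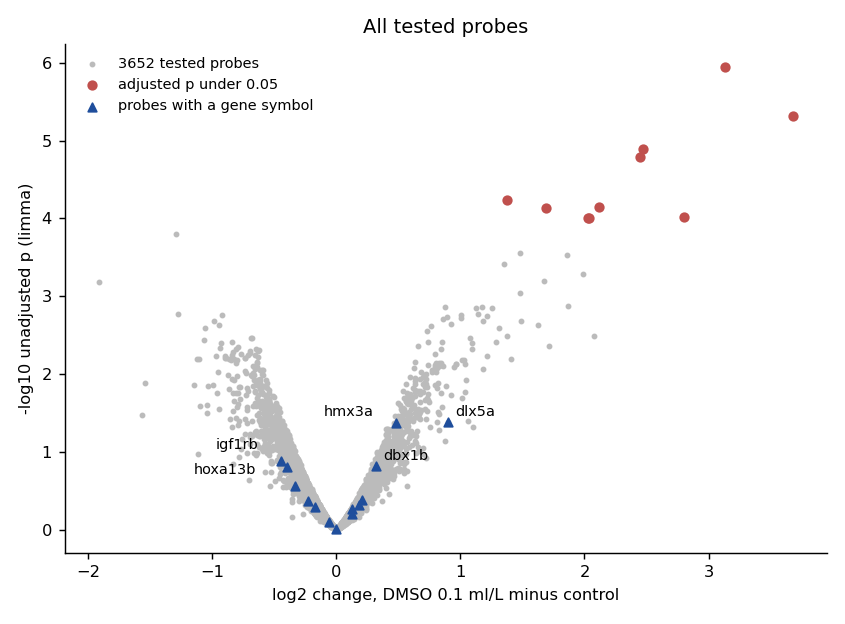
Log2 change (DMSO 0.1 ml/L minus control) against -log10 of the unadjusted limma p for 3652 probes, with the 10 that passed in red and the 14 with a gene symbol as blue triangles. The 10 lie between 1.37 and 3.68 on the log2 axis, and each gene with a symbol lies between -0.45 and 0.90.

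The probe AF180890 showed the highest change of the 10. Its pair log2 ratios were 4.32 for DMSO pool 2, 2.78 for DMSO pool 3 (the direct pair) and 3.81 for DMSO pool 4, each over its own partner. The single arrays behind these ranged from 2.54 to 5.16, so both dye orientations were above 0 in each pair. Against empty spots its amplitude ran from 1.09 to 43.7 times in control channels and from 10.8 to 832 times in DMSO channels, with overlapping ranges across arrays of unequal brightness. The fitted change was 3.68 ± 0.49 (SE; limma, adjusted p = 0.00872). It no longer passed under 9 alternatives, among them all 10 pairs as deposited (adjusted p = 0.0737) and robust eBayes (adjusted p = 0.0609, limma), and ran from 3.14 to 4.49 with 1 pair left out.

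BM155941 gave 4.17, 2.34 and 3.38 in the same order of pools, and a fitted 3.13 ± 0.38 (limma, adjusted p = 0.00415). It too failed to pass under 9 alternatives, among them the fit without DMSO pool 4 and DMF-high pool 3 (limma, adjusted p = 0.0521), and ran from 2.73 to 3.82 with 1 pair left out. For both probes the direct pair gave the lowest of the 3 values. Across the 10 probes the direct pair had a median of 1.42 (range 0.93 to 2.78), DMSO pool 2 had 3.04 (1.66 to 4.32) and DMSO pool 4 had 2.82 (1.06 to 4.06). All 10 were above 0 in each of these pairs, which is no test since the probes were called on them. Over all probes measured in the 3 pairs, 15.8% of 3289 were higher in every one and 21.6% were lower in every one.

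The same probes were not level in pools without DMSO at 0.1 ml/L. DMF-low pool 3 over DMF-high pool 2 had a median of 0.92 over them, with 10 of 10 above 0. DMF-high pool 1 over control pool 3 had 0.78, with 9 of 10 above 0. This last pair had a weight of 0.200 in the estimate on which the probes were called, so its sign is partly fixed by that choice. DMSO-low pool 3 over DMF-low pool 4 had -0.71, with 1 of 9 measured above 0. Its weight was 0.067, and that of DMF-low pool 3 over DMF-high pool 2 was -0.067. The shares of all probes above 0 in these pairs are not given here. The pairs of control pools 1 and 2 had medians of 0.17 and 0.05. Set against control in the same fit, the 10 probes had a median of -0.21 in DMSO-low pools, 0.40 in DMF-low pools and -0.17 in DMF-high pools; these comparisons share the control pools. In the same fit, DMSO pools were also set against DMSO-low and DMF-high pools, where 0.438% and 0.712% of probes passed in either direction. BM155941 had 3.61 for DMSO minus DMSO-low and -3.14 for DMF-high minus DMSO, and AF180890 had 3.83 and -3.40; these comparisons share the DMSO pools.

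**Figure D3:**
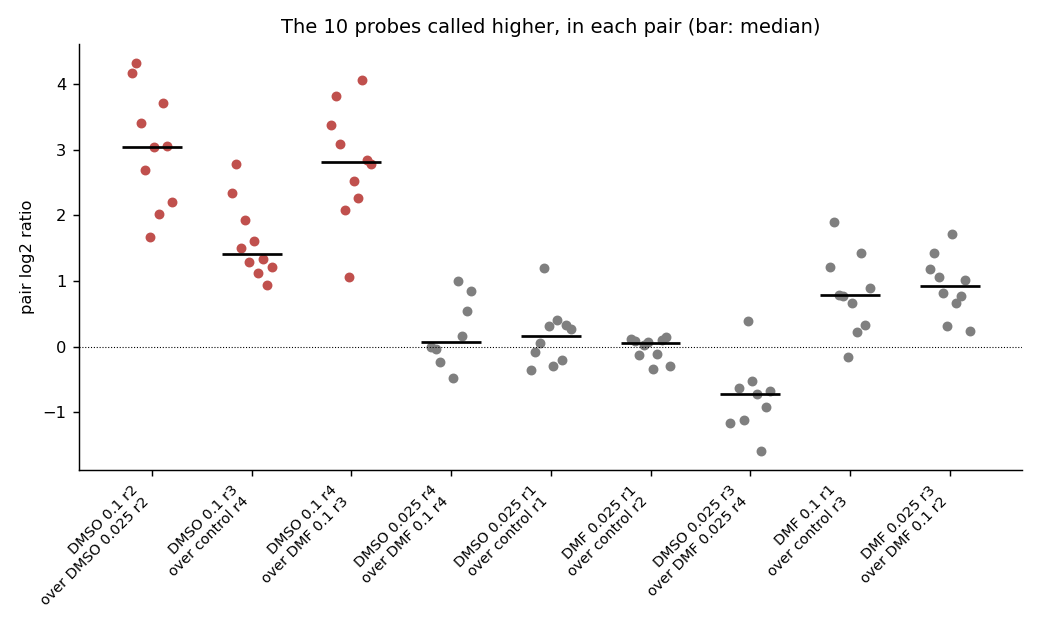
Pair log2 ratios of the 10 probes called higher, 1 point per probe, in each of the 9 pairs, with the median as a bar; red points are pairs with a DMSO 0.1 ml/L pool. All red points lie above 0, with medians of 3.04, 1.42 and 2.82, and 3 of the other pairs also have medians away from 0, at -0.71, 0.78 and 0.92.

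The count of 10 changed with the pairs and with the processing. Leaving out a pair also changes which probes have enough ratios, so 3654 to 4136 probes were tested in those fits. The count was 0 without DMSO pool 4 and DMF-high pool 3, 2 without DMSO pool 2 and DMSO-low pool 2, 2 without DMSO-low pool 3 and DMF-low pool 4, 4 without DMSO-low pool 1 and control pool 1, and 19 (1 lower) without the direct pair. It was 3 with robust eBayes and 5 with a minimum of 6 pairs. With median centring, print-tip loess, spots of every grade or ratios from 1 array it was 0, and also with background fitted on the empty spots, a setting added after the data were seen. With spots of every grade 16407 probes were tested, and with ratios from 1 array 6267, against 3652 in the main fit. The SE of BM155941 was 0.496 and 0.428 in these fits, against 0.380 in the main fit, so more than the number of probes changed. The median change of those of the 10 probes that an alternative measured, 5 to 10 of them, was between 1.97 and 3.44.

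On the lower side, BI839927 came nearest to the threshold. It gave -0.96 for DMSO pool 2, -1.39 in the direct pair and -1.10 for DMSO pool 4, and a fitted -1.29 ± 0.25 (limma, adjusted p = 0.0533), so it did not pass, but it passed under 8 of the alternatives, among them a trend in eBayes (adjusted p = 0.0335) and normexp (adjusted p = 0.0399). BI889937 had the most negative fitted value of the 2 printed here, -1.91 ± 0.44 (limma, adjusted p = 0.143), from -1.86, -1.79 and -1.83 in the 3 pairs. Its 3 DMSO values were close to each other as means of dye-swapped arrays, but the single arrays behind them ran from -3.01 to -0.72, both for DMSO pool 2. In addition, DMF-low pool 3 over DMF-high pool 2 gave -1.74 and DMF-high pool 1 over control pool 3 gave -1.34. A ratio between DMF pools was thus nearly as far below 0 as the ratios with a DMSO pool. BI889937 passed under 4 alternatives, among them the second scan batch alone (limma, adjusted p = 0.00129). In that fit its SE was 0.341, nearly that of dlx1a (0.342) and hmx3a (0.344). The p-value there thus rests mostly on a spread shared across probes, not on the scatter of BI889937 itself.

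The direct pair shares no pool with the other 8 pairs, so the comparison could be made from each separately. Across 3539 probes the direct ratio and the fit of the other pairs had a Pearson correlation of 0.206 and a Spearman correlation of 0.118, and 53.0% had the same sign. Probes are not independent replicates, and both sides share probe sequences and array design. The Pearson correlation ran from -0.0067 (without DMF-high pool 1 and control pool 3) to 0.318 when 1 further pair was left out, and was 0.367 with print-tip loess and 0.124 with normexp fitted on the empty spots. The 10 called probes had a median of 1.42 in the direct pair and 2.94 in the others; they were called on both together, so their shared sign is fixed by that choice and is no test. Of the 14 genes with a symbol, 7 had the same sign in both.

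**Figure D4:**
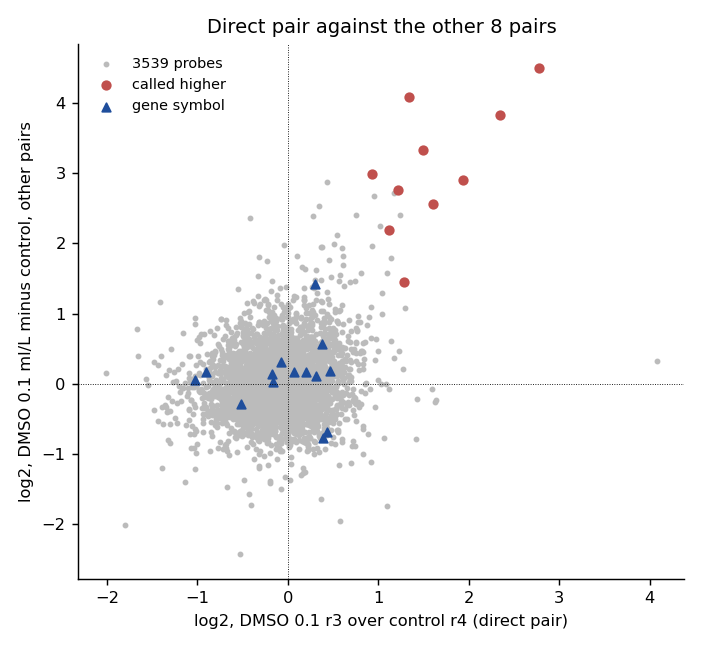
Log2 ratio of the direct pair (x) against the log2 change fitted from the other 8 pairs (y), 1 point per probe; red points are the 10 called probes and blue triangles the genes with a symbol. The grey cloud is nearly round (Pearson correlation 0.206), and the red points lie at 0.93 to 2.78 on x and 1.45 to 4.49 on y.

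Of 47 probe spots with a gene symbol, 14 were tested and 0 passed in either direction, beside 0.274% of all probes. Their median log2 change was 0.06, beside -0.06 for all probes; 7 had values above 0 and 7 below. At an unadjusted p under 0.05 there were 2, beside 12.4% of all probes. The other 33 lacked ratios: 10 had no pair, 16 had 1 to 4 pairs and 7 had 5 to 7. In the pairs with a DMSO pool, the arrays of opposite dye orientation differed in sign for 16 of the 42 ratios of the tested genes (38.1%), beside 42.9% of 10593 ratios over all tested probes.

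The dlx family had 8 members on the array and 3 tested. Of these 0 were called, beside 0.274% of all probes, and the median was 0.13, beside -0.06. The gene dlx5a, which acts in forebrain interneurons and jaw cartilage, gave 2.31 for DMSO pool 2, 0.31 in the direct pair and 0.44 for DMSO pool 4. The first value was far above the other two and came from 3.50 on one array and 1.12 on the other. In the direct pair the arrays gave 1.37 and -0.76, so the dye orientations had opposite signs. The fitted value was 0.90 ± 0.40 (limma, adjusted p = 0.379), with a 95% interval of 0.04 to 1.76. It was 0.43 without DMSO-low pool 1 and control pool 1, 0.48 without DMSO pool 2 and DMSO-low pool 2, 1.42 without the direct pair and 0.30 with print-tip loess. In 1 control channel, Cy3 of control pool 1, the amplitude of dlx5a was below that of empty spots, at 0.431 times. In Cy5 of the same pool it was 1.07 times.

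Its relatives were closer to 0. The gene dlx2a, expressed in forebrain and neural crest, gave -0.01, -0.08 and -0.02 in the pairs of DMSO pools 2, 3 and 4, and a fitted 0.13 ± 0.21. The forebrain gene dlx1a gave 0.18, -0.17 and -0.17, and a fitted -0.001 ± 0.20. For dlx2a all 3 DMSO ratios were below 0 and the fitted value above, because the fit adds the steps from the other conditions to control. Its arrays differed in sign for DMSO pool 2 (0.07 and -0.10) and DMSO pool 4 (0.09 and -0.14).

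Of the hox genes, 7 were on the array and 3 were tested. Of those 3, 0 were called, beside 0.274% of all probes, and the median was 0.13, beside -0.06. The tail and posterior gene hoxa13b gave -0.23, -0.51 and -0.62 for DMSO pools 2, 3 and 4, with arrays of opposite sign for DMSO pool 2 (-0.62 and 0.15), and a fitted -0.39 ± 0.26 (limma, adjusted p = 0.548). The hindbrain gene hoxb1b gave 0.26, 0.31 and -0.14, and the trunk gene hoxb5a gave 0.89, 0.07 and -0.05. Their fitted values were 0.21 ± 0.24 and 0.13 ± 0.25. The DMSO pools did not have 1 sign for either of them. The arrays of hoxb1b differed in sign in all 3 pairs: 0.73 and -0.22, 0.83 and -0.21, and 0.07 and -0.35. Those of hoxb5a differed in the direct pair (-0.04 and 0.18).

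The genes of hindbrain, spinal cord and ear had 5 members on the array and 4 tested, of which hoxb1b was also counted among the hox genes. Of the 4, 0 were called, beside 0.274% of all probes. Their fitted values ran from 0.18 to 0.48 (median 0.26, beside -0.06 for all probes). The gene hmx3a, which acts in the inner ear and lateral line, gave 0.72, 0.38 and -0.04, and a fitted 0.48 ± 0.22 (limma, adjusted p = 0.382). The gene dbx1b, of spinal interneuron progenitors, gave 0.14, 0.47 and -0.02, and a fitted 0.32 ± 0.21. The hindbrain segmentation gene mafba gave 0.31, 0.20 and 0.04, above 0 in all 3 pairs, and a fitted 0.18 ± 0.25. Its value for DMSO pool 4 was the mean of -0.004 and 0.09 on the arrays. Arrays also differed in sign for hmx3a in the direct pair (0.85 and -0.10) and DMSO pool 4 (0.13 and -0.22), and for dbx1b in DMSO pool 4 (0.09 and -0.13). For hmx3a and dbx1b, DMSO pool 4 lay just below its DMF partner.

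Among the remaining transcription factors, egr1, an immediate early gene, gave -0.98, 0.39 and -0.68, and a fitted -0.23 ± 0.29. The value of DMSO pool 2 was the mean of 0.31 and -2.27 on its arrays, which differ in sign. The gene zeb1b, a zinc finger repressor, gave -0.15, -0.17 and -0.09, and a fitted -0.06 ± 0.22. Its arrays differed in sign for DMSO pool 2 (0.32 and -0.62) and DMSO pool 4 (0.08 and -0.26), and the 95% interval of the fitted value was -0.54 to 0.42.

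For both tested receptors the DMSO pools had ratios of opposite sign. The insulin-like growth factor receptor igf1rb gave 0.48, -1.03 and -0.32 for DMSO pools 2, 3 and 4, and a fitted -0.45 ± 0.28. The retinoic acid receptor rarga gave 0.55, -0.91 and -0.37, and a fitted -0.33 ± 0.29. For both, the direct pair was lowest and DMSO pool 2 highest. Without the direct pair the fitted values were 0.06 and 0.17, both above 0. In 1 DMSO channel, Cy5 of DMSO pool 3, the amplitude of igf1rb was below that of empty spots, at 0.956 times. This was the array of the direct pair that gave -1.41. The arrays of igf1rb differed in sign for DMSO pool 4 (-0.67 and 0.03). The nascent peptide binding gene naca gave -0.41, 0.43 and -0.31, and a fitted -0.17 ± 0.25.

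**Figure D5:**
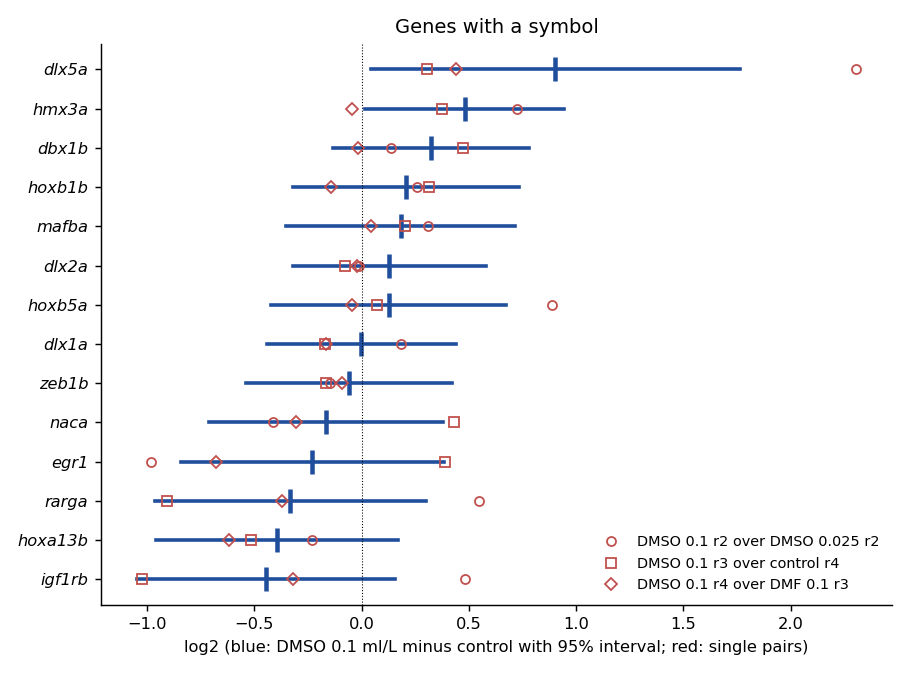
Fitted log2 change (DMSO 0.1 ml/L minus control, blue tick) with its 95% interval (blue bar) for the 14 genes with a symbol, and the ratios of the 3 pairs with a DMSO 0.1 ml/L pool (red). The red points of egr1, igf1rb and rarga lie on both sides of 0, and those of hoxa13b all lie below 0, at -0.62 to -0.23.

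Of the symbol genes outside the test, 7 had a ratio in the direct pair. The vitamin A carrier rbp4 gave -0.24 there, 0.96 for DMSO pool 2 and -0.02 for DMSO pool 4. The growth factor gdf6b gave -0.70, 0.68 and 0.15 in that order. The others had values of -0.33 for hoxb6a, -0.22 for tlx2, 0.15 for hoxa2b, 0.46 for hoxc5a and 0.84 for phc2a in the direct pair. For DMSO pool 2, phc2a gave -0.08, opposite in sign to its direct value. For DMSO pool 4, tlx2 gave -0.52 and hoxb6a -0.07. Of the pairs with a DMSO pool, hoxa2b and hoxc5a had a ratio in the direct pair only. None of these 7 genes reached the minimum of 8 pairs set here for the main fit.

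The mitochondrial genome record was printed in 13 spots, and which transcript each spot reports is not given in the files. Of 10 tested, 0 passed, beside 0.274% of all probes. Values were above 0 for 3 and below for 7, beside 1592 of all 3652 above 0, a split near that of all probes. Their median was -0.29 (range -0.78 to 0.15), beside -0.06 for all probes. One probe, AF025305, was printed in 172 spots, and its average gave 1.02 for DMSO pool 2, -0.12 in the direct pair and 1.12 for DMSO pool 4. Its fitted value of 0.58 ± 0.27 did not pass (limma, adjusted p = 0.390). It was 1.19 without the direct pair, 0.34 without DMSO pool 4 and DMF-high pool 3, 0.078 with print-tip loess and 0.082 in the authors' value table, whose log base is not settled.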

How the data were processed

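Per the file headers, BlueFuse for Microarrays 3.6 produced the intensity used here, an amplitude for each spot in each dye; the deposited files have no background column. The authors' value table holds signed ratios, taken here as log2; their log base and making are not given in the sources used here. All 20 of its 20 columns matched Cy5 over Cy3 of their own array best (Spearman 0.38 to 0.84). Column medians were -0.044 to 0.065. The spread of a column was 0.582 to 1.76 times that of the log2 ratios computed here, which does not settle its scale. It served as an alternative.

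From the amplitudes, log2 of Cy5 over Cy3 was taken without background correction (R 4.3.3; limma 3.58.1; packages statmod 1.5.0 and jsonlite 2.0.0). The 750 control spots among 17328, and spots graded lowest (confidence below 0.1), were dropped. Loess ran per array (span 0.3, iterations 4). Spots of 1 probe were averaged, giving 16407 probes, then the dye-swapped arrays of a pair. A probe needed 8 of 9 pairs. The model, fitted by lmFit and eBayes, had 4 coefficients, 5 residual degrees of freedom with all pairs and 8.67 prior ones. Benjamini-Hochberg adjustment ran over all tested probes, with a threshold of 0.05. The p-values rest on the scatter of pair ratios around the fit, which holds array noise as well as differences between plate pools. Across probes, the 2 arrays of a pair, turned the same way, correlated from -0.322 to 0.513. The steps from pair averaging on were tested on simulated data.

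Symbols came from RefSeq accessions without versions in the reference gene table, which named 47 of 61 such spots. All 14 tested symbol genes are named, with 2 unnamed records per direction. Members, lists and tests were chosen with earlier results of these data known.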

Additional observations from a re-analysis of the deposited data

Results flagged for a closer look

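The change from control of BM155941 differed between conditions in the same fit. It was 3.61 log2 units higher with DMSO at 0.1 than at 0.025 ml/L (limma, adjusted p = 0.000778), and with DMF at 0.1 ml/L it was -3.14 relative to DMSO at 0.1 ml/L (limma, adjusted p = 0.00401). For AF180890 these differences were 3.83 (adjusted p = 0.00548, limma) and -3.40 (adjusted p = 0.00864, limma). Both probes had been called on the same DMSO pools, and the comparisons share them. Fitted DMF 0.1 ml/L minus control was -0.009 for BM155941 and 0.28 for AF180890. The pair of DMF-high pool 1 over control pool 3 gave 1.21 and 1.91. These differences between conditions were not refitted under the alternatives.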

How the results depend on the processing

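The number of probes called (10) was 6 with the 2 lowest grades left out (1 lower), 2 with all arrays as deposited, 3 with robust eBayes, 5 with a ratio in at least 6 pairs (1 lower), 15 in the second scan batch alone (4 lower), 28 with single arrays (5 lower) and 125 with separate channels (66 higher, 59 lower); the single-array and separate-channel fits treat dye-swapped arrays as further measures. It was 0 with low-confidence spots kept, median centring, print-tip loess, 1-array ratios and the authors' value table. With low-confidence spots kept, and in the authors' table, 16407 probes were tested, and with 1-array ratios 6267, against 3652 in the main fit. The SE of BM155941 was 0.496, 0.687 and 0.428 in these fits, against 0.380 in the main fit. With all arrays as deposited, 3231 probes were tested. Leaving out 1 pair gave 0 to 19 probes called. In the second scan batch alone, p-values rested mostly on a spread shared across probes. Subtracting the empty-spot median before normexp gave 11, the same as normexp alone, because normexp absorbs a constant. A version with normexp fitted on the empty spots, added after that result was seen, gave 0. Deviations in single-channel log2 intensity, not the intensities themselves, were correlated between control and DMSO pools 2, 3 and 4. Pools of the same number had correlations of -0.065, -0.157 and -0.413. The highest with another number were 0.096, 0.322 and 0.233. The pools numbered 3, and those numbered 4, lay in different scan batches, so whether same-numbered pools deviate together was not settled. A fit with the replicate number as a block called 0, and 0 again when all 9 pairs were required (run first, kept as an added setting). The block adds coefficients, so this fit had fewer residual degrees of freedom than the main fit. Under the block, with 8 or 9 pairs required, dlx1a was 0.032, egr1 0.083, rarga 0.032 and zeb1b 0.13, each opposite in sign to its reported value, and dlx5a (8 pairs) was 2.90, which did not pass. Signs also turned for dlx1a with low-confidence spots kept (0.010) and with either normexp (0.0027 and 0.0028), for egr1 in the second batch (0.019), and in the last batch for hoxb1b (-0.13) and hoxb5a (-0.027). That batch alone, with no test, moved AF180890 to 5.72, BI889937 to -3.16, egr1 to -1.17, hoxa13b to -1.07, rarga to -0.82, naca to -0.51 and hmx3a to 0.02. With 1 pair left out, values ran from -0.067 to 0.15 for dlx1a, -0.0037 to 0.31 for dlx2a, 0.43 to 1.42 for dlx5a, -0.77 to -0.01 for egr1, -0.65 to -0.20 for hoxa13b, -0.058 to 0.24 for hoxb5a, -0.68 to 0.058 for igf1rb, -0.69 to 0.0010 for naca, -0.70 to 0.17 for rarga and -0.20 to 0.032 for zeb1b; the correlation of the direct pair with the others ran from -0.0067 to 0.318. None of the 14 genes passed under the alternatives that tested it; symbol genes that only a lower minimum of pairs let in were not looked up. The cause of these changes was not tested.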

Other observations

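Array 2, the other array of the pair left outside the fit, carried DMSO 0.1 ml/L replicate 1 over DMF 0.025 ml/L replicate 2 in 1 dye orientation, so a dye effect does not cancel. It was the only array of the first scan batch. On it 30.0% of probe spots had a grade above the lowest, a smaller share than on any array of the fit. Of the 10 probes called, 5 were measured on it and all 5 were above 0, with a median log2 ratio of 1.17 (range 0.68 to 2.08, the highest for AF180890). BM155941 was not measured there, and whether the measured 5 stand for all 10 was not tested. Median amplitude was 7.58 times that of empty spots in the DMSO channel (Cy5) and 1.56 times in the other. Whether probes high in the DMSO pool passed the grade filter more easily there was not tested. Over the 2045 tested probes measured there, 47.0% were above 0 and the median was -0.03. Of the 14 genes with a symbol, those measured there gave 0.45 for zeb1b, 0.34 for dlx5a, -0.15 for mafba, -0.23 for rarga, -0.24 for hoxb5a, -0.25 for hoxb1b, -0.31 for egr1, -0.39 for naca and -0.68 for igf1rb. The signs for zeb1b, mafba, hoxb5a and hoxb1b were opposite to their fitted values against control. This pool was not used to call the probes. The 5 were measured only because their spots passed the grade filter on this array, so their shared sign is no independent test.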
